A study of Mus musculus with 8 samples.

Results

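Crip1, Capn2, Myadm, Emp1, Emp2, Plet1, Vim, Lgals1, Lgals3 and Ahnak are 10 mouse genes grouped here as membrane and cortex genes. The name does not place each protein, as some of them, such as the galectins, are also found in the cytosol. These genes were chosen by their difference between the arrays labelled KLF7 and the arrays labelled control in earlier results of these same data. That difference is therefore described here and is not tested. All 10 were found among the 19938 genes measured, each by 1 probe set that carries the symbol of that gene alone. The measurements come from C57Bl/6 mouse marrow, from which cells bearing the receptor c-Kit were taken and exposed to a lentivirus. The 4 KLF7 arrays hold cells that received the virus expressing KLF7, a zinc finger transcription factor, and the 4 control arrays hold cells that received a control virus whose content the labels do not give. In both groups KLS cells, which bear c-Kit and Sca-1 but no lineage markers and hold the stem cells and early progenitors, were sorted 72 hours later, and their RNA was amplified for the array. The labels do not say whether arrays of a group came from separate mice or cultures, so the spread given below is that between arrays and may be technical.

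The plasma membrane of a blood cell is held to a thin layer of actin, spectrin and intermediate filaments called the cortex. Linker proteins, calcium-dependent proteases and scaffold proteins fasten the membrane to this layer or release it, and galectins bind sugar chains on the outer face. Progenitors remodel this layer as they adhere, migrate and mature, and several of the 10 genes are also well known in macrophages and other mature cells.

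The transduced gene was examined first. The log2 intensity of Klf7 was 11.43, 10.19, 11.05 and 10.52 on the KLF7 arrays and 8.53, 10.28, 9.35 and 7.98 on the control arrays, each in the order of replicates 1 to 4. The array labelled control 2 lay just above the array labelled KLF7 2, so both groups are called by their labels here. Kit, which encodes the receptor used for the sort, lay between 7.85 and 10.52 on the KLF7 arrays and between 8.33 and 9.85 on the control arrays, with the arrays numbered 4 lowest in both groups. Array medians over all probe sets lay between 46.2 and 54.1 intensity units. In bulk RNA, a change in the share of cells of a type and a change in the RNA of each cell cannot be told apart.

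The KLF7 arrays had the higher mean for all 10 genes, as for 50.4% of all genes. For 7 of the 10, every KLF7 array lay above every control array, a pattern shown in this direction by 2.83% of all genes. The mean was at least 2-fold higher for 6 of the 10, against 0.602% of all genes. These shares only restate how the genes were picked. The median of the 10 differences was 1.09 on the log2 scale, with a range of 0.42 (Vim) to 2.46 (Plet1), beside a median of 0.0019 over all genes. An intensity depends on the probes as well as on the RNA, so levels are compared between arrays for 1 gene at a time and not between genes.

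**Figure D1:**
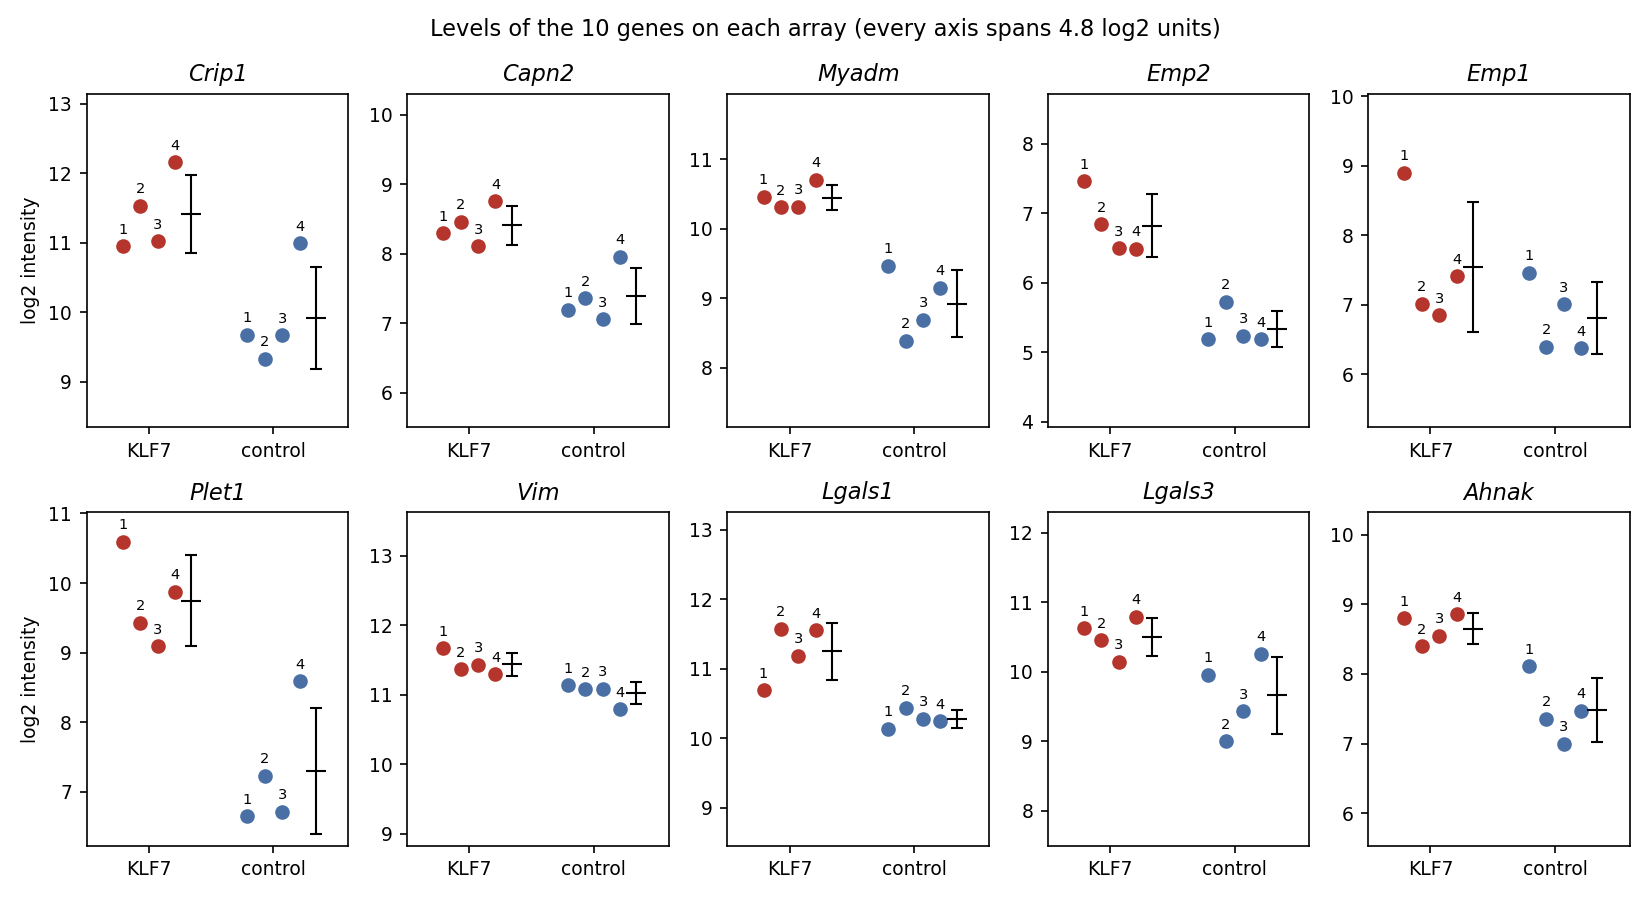
Log2 intensity of each of the 10 genes on the 4 KLF7 arrays (red) and the 4 control arrays (blue), with replicate numbers above the points and the mean with its SD in black. The groups overlap for Crip1, Emp1 and Lgals3 and are apart for the other 7 genes, and Plet1 shows the largest difference.

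Among the surface and membrane genes, Plet1 stood out. It encodes a surface protein held by a lipid anchor, known from placenta and from epithelial progenitors. Plet1 had a log2 intensity of 10.60, 9.43, 9.09 and 9.88 on the KLF7 arrays, against 6.65, 7.23, 6.71 and 8.59 on the control arrays. Every KLF7 array was above every control array, with 0.50 between the closest arrays of the groups, and the array labelled control 4 was well above the other control arrays. The difference was 2.46 (SE 0.45, 5.49-fold), the largest positive difference of the 19938 genes.

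Emp1 and Emp2 encode members of a small family of proteins that cross the membrane 4 times and belong with PMP22, the protein of peripheral nerve myelin. Emp2 had a log2 intensity of 7.46, 6.84, 6.50 and 6.49 on the KLF7 arrays, against 5.19, 5.73, 5.24 and 5.18 on the control arrays. The groups were apart by 0.76, and all 4 control values lay below 5.84, the median over all genes of their mean level, so Emp2 was a dim gene in control cells. Its difference was 1.49 (SE 0.23, 2.80-fold). Emp1 had 8.90, 7.01, 6.85 and 7.41 on the KLF7 arrays, against 7.46, 6.40, 7.004 and 6.38 on the control arrays. The groups overlapped, because only the array labelled KLF7 1 stood clear of the control range. The difference of Emp1 was 0.73 (SE 0.43) with all arrays, and 0.28 without that array.

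Promoters of genes that differ together are shown because KLF factors are known to bind GC-rich boxes and CACCC boxes. RefSeq windows of 300 bases (250 before and 50 after a transcript's start, build GRCm38.p6) were found for 9 of the 10 genes, 13 windows in all, and Lgals1 had none in the table used. The motif CCNCNCCC, where N is any base, was searched on both strands. It matched in 7 of the 9 genes and 10 of the 13 windows, against 49.5% of all 32851 windows in the table. CACCC matched in 8 of the 9 genes and 11 of the 13 windows, against 57.5% of all windows, and GGGCGG in 6 genes and 8 windows, against 35.7% of all windows. Myadm alone has 4 of the 13 windows, a pair of them shifted by 1 base, so the window counts repeat that gene: all 4 hold CCNCNCCC and CACCC and 3 hold GGGCGG. A gene was counted when any of its windows matched, which is likelier for a gene with several windows. The shares of all windows are per window, so the gene counts have no like share beside them. A stretch can match more than 1 of these motifs, as CCNCNCCC includes strings that hold CACCC or the complement of GGGCGG. The median G and C content was 62.7% in the windows of the 10 genes and 52.7% in all windows, and its part in these shares was not tested. A match is a string of letters and not a shown binding site. The windows with the most CCNCNCCC matches are printed with their genes, 5′ to 3′ on the strand of the gene and with matched bases in capitals, and ties were settled by alphabet. Of the 9 matches of Emp2, most overlap in 1 run of G bases that begins at base -64 from the start.
Emp2, chr16:10313919-10314218, minus strand: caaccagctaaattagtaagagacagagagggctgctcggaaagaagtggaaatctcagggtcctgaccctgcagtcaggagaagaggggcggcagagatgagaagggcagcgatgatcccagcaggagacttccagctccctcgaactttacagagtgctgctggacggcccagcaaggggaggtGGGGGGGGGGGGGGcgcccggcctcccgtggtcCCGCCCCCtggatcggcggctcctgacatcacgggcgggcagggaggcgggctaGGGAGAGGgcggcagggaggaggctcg

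Myadm encodes a protein with many membrane spans that was named for its appearance during myeloid differentiation and that lies in cholesterol-rich parts of the membrane. Its log2 intensity was 10.46, 10.31, 10.32 and 10.70 on the KLF7 arrays, against 9.47, 8.39, 8.69 and 9.15 on the control arrays. The 4 KLF7 values lay close together, and the lowest of them was 0.84 above the highest control value, the widest gap of the 10 genes. The difference was 1.52 (SE 0.25, 2.88-fold).

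Of the genes for proteins under the membrane, Crip1 differed most. It encodes a small cysteine-rich protein made of little more than 1 LIM domain, a zinc-binding fold of many cytoskeletal proteins. Crip1 had a log2 intensity of 10.95, 11.53, 11.02 and 12.16 on the KLF7 arrays, against 9.68, 9.33, 9.67 and 10.99 on the control arrays. Both arrays numbered 4 were the highest of their group, and the array labelled control 4 reached just past the array labelled KLF7 1, by 0.043. The difference was 1.498 (SE 0.38, 2.82-fold), and it was 1.86 without the array labelled control 4. The Crip1 window held 8 matches to CCNCNCCC, several of them overlapping, in 3 stretches, and the longest stretch began at base -39 from the start.
Crip1, chr12:113151762-113152061, plus strand: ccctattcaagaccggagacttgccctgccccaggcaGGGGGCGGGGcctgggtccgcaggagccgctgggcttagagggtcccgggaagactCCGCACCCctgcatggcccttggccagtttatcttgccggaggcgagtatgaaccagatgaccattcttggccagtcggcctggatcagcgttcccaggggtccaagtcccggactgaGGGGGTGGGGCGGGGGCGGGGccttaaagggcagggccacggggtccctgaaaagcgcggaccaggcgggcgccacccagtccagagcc

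Ahnak encodes a giant scaffold protein that binds the complex of S100A10 and annexin A2 at the inner face of the membrane. Its log2 intensity was 8.80, 8.40, 8.55 and 8.86 on the KLF7 arrays, against 8.11, 7.36, 6.999 and 7.47 on the control arrays. The KLF7 arrays lay close together and above all control arrays, of which control 1 came nearest. The difference was 1.17 (SE 0.24, 2.25-fold). In the Ahnak window the 4 matches lay in 3 stretches.
Ahnak, chr19:8989034-8989333, plus strand: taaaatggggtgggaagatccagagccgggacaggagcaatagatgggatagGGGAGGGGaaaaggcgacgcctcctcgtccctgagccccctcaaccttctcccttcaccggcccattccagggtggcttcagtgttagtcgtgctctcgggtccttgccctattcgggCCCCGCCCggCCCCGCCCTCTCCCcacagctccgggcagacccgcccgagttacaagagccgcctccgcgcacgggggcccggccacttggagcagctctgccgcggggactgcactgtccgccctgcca

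Capn2 encodes the catalytic subunit of m-calpain, a protease that calcium activates and that cuts talin, spectrin and other cortical proteins. It had a log2 intensity of 8.30, 8.46, 8.11 and 8.76 on the KLF7 arrays, against 7.19, 7.36, 7.06 and 7.96 on the control arrays. As for Crip1, the arrays numbered 4 were highest in both groups, yet the groups did not overlap and were 0.15 apart. The difference was 1.02 (SE 0.23, 2.02-fold). Vim encodes vimentin, the intermediate filament protein of blood and connective tissue cells. Its log2 intensity was 11.67, 11.37, 11.43 and 11.30 on the KLF7 arrays, against 11.14, 11.08, 11.09 and 10.79 on the control arrays. The groups did not overlap, although the difference, 0.42 (SE 0.17, 1.33-fold), was the smallest of the 10, and Vim varied little between arrays of a group (SD 0.16 in each).

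Galectins are secreted and cytosolic proteins that bind galactose-containing sugar chains. Lgals1, which encodes galectin-1, had a log2 intensity of 10.69, 11.58, 11.18 and 11.55 on the KLF7 arrays, against 10.13, 10.44, 10.28 and 10.24 on the control arrays. The groups were 0.25 apart, with the array labelled KLF7 1 nearest to the control arrays. Its difference was 0.98 (SE 0.22, 1.97-fold). Lgals3, which encodes galectin-3, a galectin well known from macrophages, had 10.62, 10.45, 10.14 and 10.79 on the KLF7 arrays, against 9.95, 9.003, 9.43 and 10.26 on the control arrays. The groups overlapped, because control 4 reached a higher value than KLF7 3. The difference of Lgals3 was 0.84 (SE 0.28, 1.79-fold). The Lgals3 window held 4 separate matches to CCNCNCCC, 1 of them from base -9.
Lgals3, chr14:47373610-47373909, plus strand: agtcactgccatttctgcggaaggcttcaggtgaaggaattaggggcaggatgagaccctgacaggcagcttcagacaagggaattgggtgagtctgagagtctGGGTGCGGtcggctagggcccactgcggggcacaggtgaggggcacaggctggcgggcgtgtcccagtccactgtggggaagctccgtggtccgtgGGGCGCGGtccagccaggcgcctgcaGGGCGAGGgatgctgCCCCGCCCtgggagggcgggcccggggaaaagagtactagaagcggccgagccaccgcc

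Arrays of a group did not differ alike for all 10 genes. The array labelled KLF7 3 was below the KLF7 mean for 10 of 10 genes, by 0.30 on average. The arrays labelled KLF7 4 and KLF7 1 were each above that mean for 7 of 10. Within the control group, control 4 was the highest array for 4 genes (Crip1, Capn2, Plet1 and Lgals3) and the lowest for 3 (Emp1, Emp2 and Vim). These are unlike profiles: Plet1 deviated from its control mean by 1.30 on that array and Vim by -0.23.

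**Figure D2:**
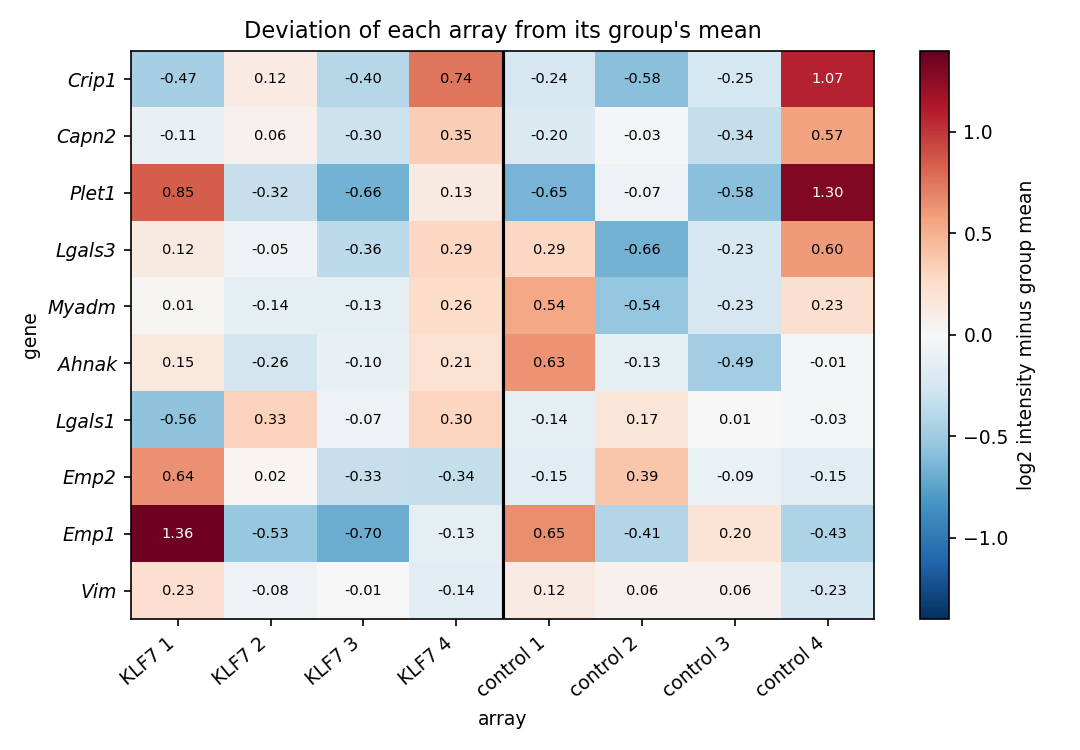
Log2 intensity minus the mean of the array's own group, for each of the 10 genes (rows) on the 8 arrays (columns, KLF7 left of the line and control right). The arrays numbered 4 are positive for Crip1, Capn2, Plet1, Lgals3 and Myadm in both groups and negative for Emp1, Emp2 and Vim in both.

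The same split appeared when pairs of genes were compared over the 8 arrays. All correlations are given as descriptions with no p, since the genes were picked partly for them and all values share the same 8 arrays. As measured, Pearson's r of the 45 pairs had a median of 0.77 and lay between 0.11 (Emp1 with Lgals1) and 0.96 (Crip1 with Capn2, and Myadm with Ahnak), and Spearman's rho had a median of 0.67. Those values hold the difference between the groups, which all 10 genes share. After each group's mean was subtracted, the median r was 0.17, with 26 pairs above 0 and 19 below, and the median was 0.0097 when the arrays were quantile normalised again. Leaving out 1 array gave medians from 0.07 (without control 3) to 0.24 (without control 1).

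Crip1 and Capn2 (r = 0.89), Myadm and Lgals3 (0.87) and Myadm and Ahnak (0.79) still varied together within the groups. Emp1 and Vim (0.74), Emp2 and Vim (0.65) and, less so, Emp1 and Emp2 (0.54) did as well. Other pairs varied in opposite directions, as did Crip1 with Vim (-0.87), Capn2 with Vim (-0.77) and Emp1 with Lgals1 (-0.77). These values rest on few arrays. Without both arrays numbered 4, r was 0.21 for Crip1 with Capn2, -0.57 for Crip1 with Vim and -0.14 for Capn2 with Vim. In the same setting r was 0.91 for Myadm with Lgals3, 0.82 for Myadm with Ahnak and 0.92 for Emp1 with Vim. Without the array labelled KLF7 1, r was 0.43 for Emp1 with Vim, 0.23 for Emp2 with Vim and -0.15 for Emp1 with Lgals1. For Emp1 with Emp2 the sign turned without that array, to -0.45.

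**Figure D3:**
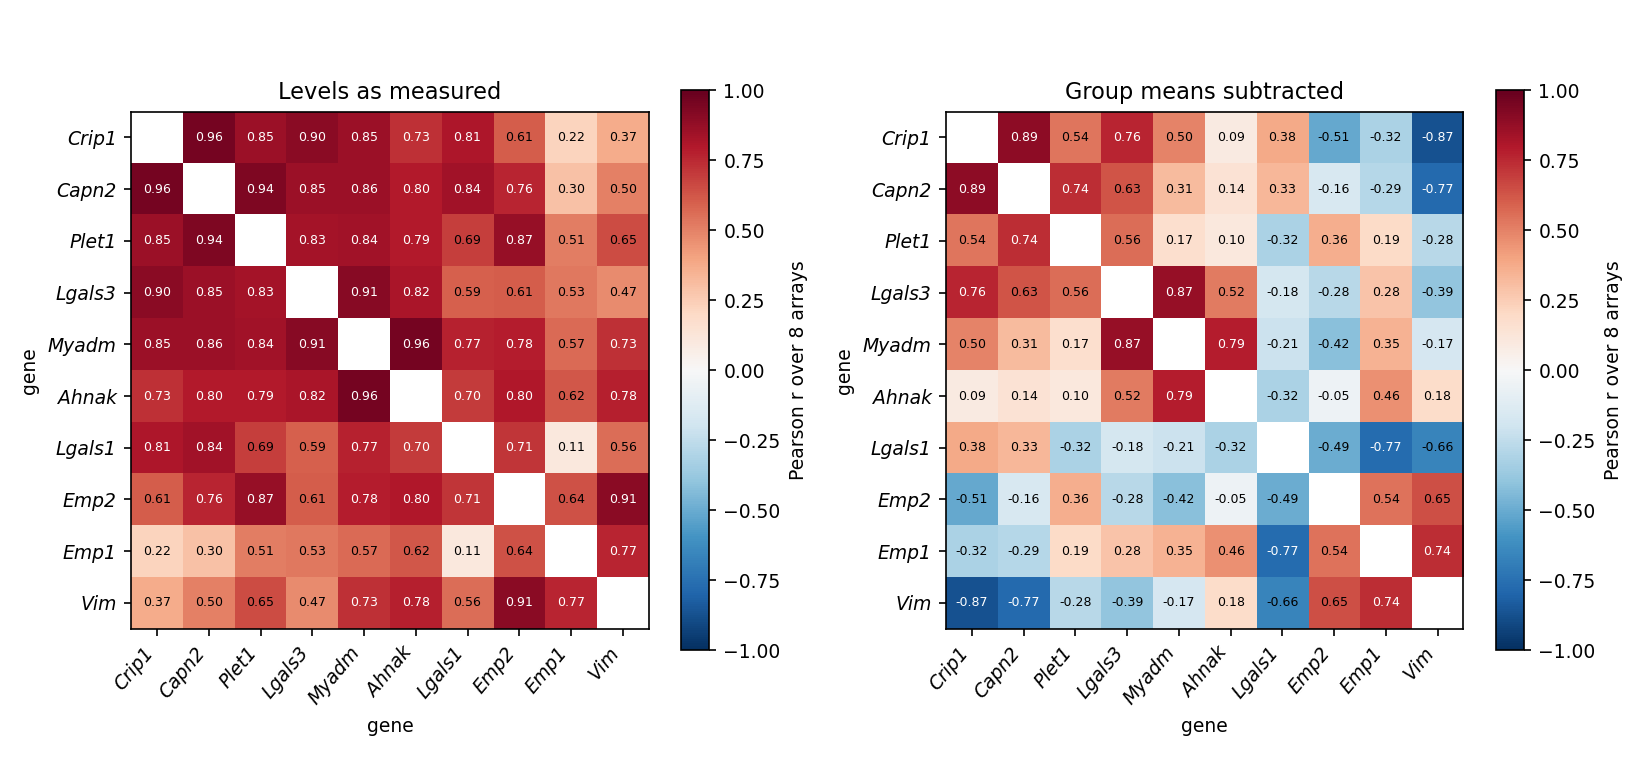
Pearson's r of each pair of the 10 genes over the 8 arrays, with levels as measured (left) and after the mean of each group was subtracted (right). All 45 pairs are above 0 on the left, and 19 are below 0 on the right, all of them pairs that hold Vim, Emp2, Emp1 or Lgals1.

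The genes most like the 10 were sought among 9959 other genes with a mean level above the median of all genes, by their correlation with the mean of the 10 standardised profiles over the 8 arrays. With levels as measured the first 6 were Dpysl2, a cytoskeletal phosphoprotein gene (r = 0.98), Sptan1, which encodes the alpha chain of the spectrin cortex (0.98), Eps15, an endocytosis adaptor gene (0.97), Niban2 (0.97), Mex3b, an RNA-binding protein gene (0.97), and Serinc1 (0.97). After group means were subtracted the first 6 were Cd68, a lysosomal glycoprotein gene of macrophages (0.99), Mpeg1, a pore-forming protein gene of macrophages (0.99), Ctsa, a lysosomal carboxypeptidase gene (0.99), Csf1r, the receptor gene of macrophage colony-stimulating factor (0.99), P2ry6, a nucleotide receptor gene (0.98), and Cfp, which encodes properdin (0.98). Cd68 differed little between the groups, with a mean of 8.84 ± 0.53 on the KLF7 arrays and 8.87 ± 0.53 on the control arrays (SD, n = 4 each).

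Markers of mature myeloid cells were then set beside the 10 genes. Of 21 measured markers of monocytes, macrophages and dendritic cells, 18 averaged higher in KLF7 cells, as did 50.4% of all genes, with a median difference of 0.62. At an unadjusted p under 0.05 in limma 11 were higher, against 4.65% of all genes, and 0 passed Benjamini-Hochberg adjustment. This list too was written with earlier results of these data known, so its counts describe it and do not test it. The largest differences were those of H2-Eb1 (1.42, SE 0.45) and H2-Aa (1.41, SE 0.44), which encode chains of the class II antigen-presenting molecules and whose groups overlapped. Itgax, the gene of the integrin CD11c (1.29, SE 0.38), and Ccr7, a chemokine receptor gene of migrating dendritic cells (1.28, SE 0.30), followed. Their KLF7 arrays all lay above their control arrays, as for 4 of the 21 markers in all, against 2.83% of all genes. The summed intensity of the list ran from 10787 to 22917 units on the KLF7 arrays and from 5351 to 13164 on the control arrays. Zbtb46, Xcr1 and Siglech, which mark kinds of dendritic cell, were below the median of all genes on every array. Over the 8 arrays, the mean level of the 10 genes and that of this list had r = 0.93 after group means were subtracted, with a range of 0.90 to 0.97 over the sets that lacked 1 array. No marker on this list is 1 of the 10 genes, but Cd68, Mpeg1 and Csf1r were named above for following the 10 within groups. The r of this list is thus not separate evidence from that ranking. It was computed for no other marker list. The part of these markers in the differences of the 10 genes was not tested.

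The 2 arrays nearest in marker level came from different groups. The array labelled KLF7 2 had a marker mean of 8.06 and a mean over the 10 genes of 9.54. The array labelled control 4 had a marker mean of 8.07 and a mean over the 10 genes of 8.70. The 10 genes were picked on the difference between the groups, and their mean was higher on every KLF7 array than on any control array. Any pair of arrays from different groups therefore shows such a gap, and the part of the markers in it was not tested. With the level of Klf7, r of the 10 genes' mean was 0.64 as measured and -0.49 after group means were subtracted. The latter ranged from -0.78 to -0.21 over the sets that lacked 1 array, and was -0.15 without both arrays numbered 4. Gene by gene, r with Klf7 after that subtraction went both ways, from -0.81 (Lgals3) to 0.65 (Vim). The array labelled control 2, which had the highest Klf7 level of the control arrays, had a mean of 8.23 over the 10 genes, against 8.22 to 8.70 on the other control arrays.

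**Figure D4:**
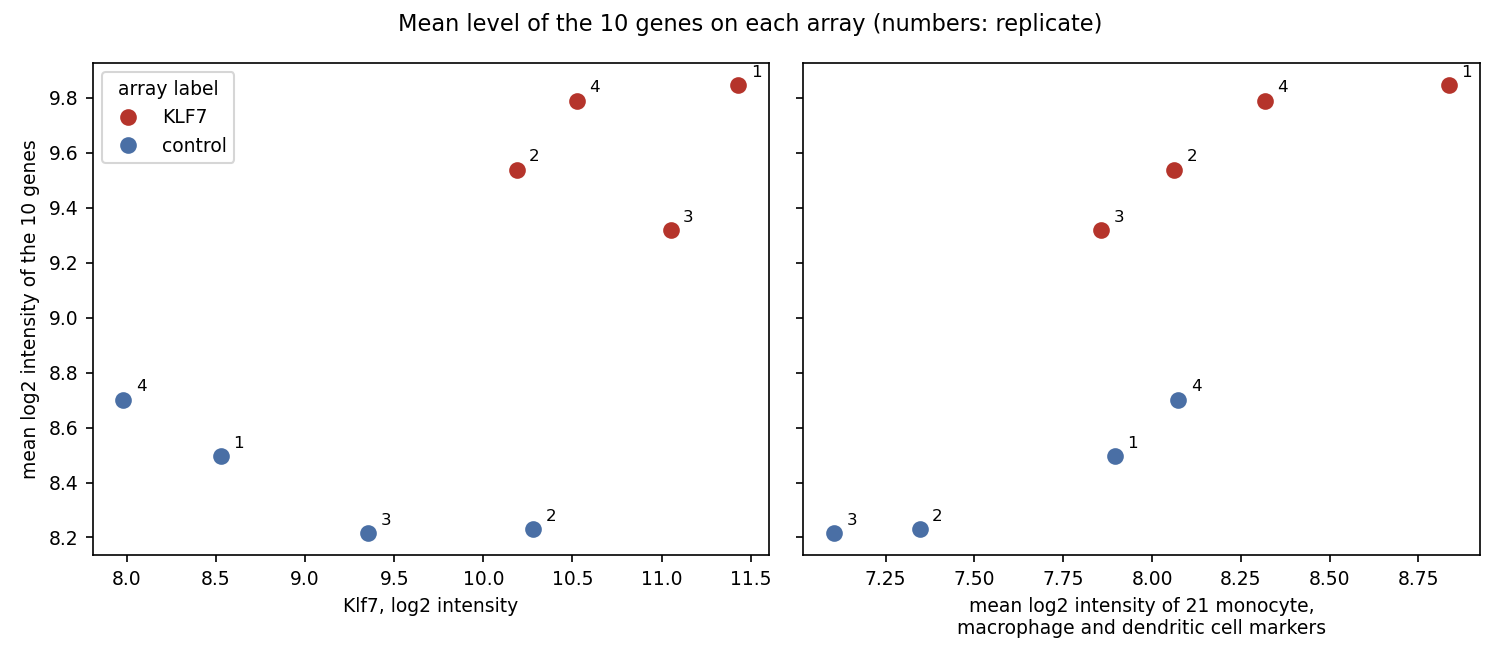
Mean log2 intensity of the 10 genes on each array against the log2 intensity of Klf7 (left) and against the mean log2 intensity of 21 markers of monocytes, macrophages and dendritic cells (right), with KLF7 arrays in red, control arrays in blue and replicate numbers beside the points. The KLF7 arrays lie between 9.32 and 9.85 and the control arrays between 8.22 and 8.70, and within each group the arrays with more marker signal have the higher mean.

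Relatives and partners of the 10 genes, which the choice did not use, were read from a test over all genes. Of 89 such genes measured, 66 (74.2%) averaged higher in KLF7 cells, against 50.4% of all genes, and 23 lower, with a median difference of 0.19. None passed limma with Benjamini-Hochberg adjustment (smallest adjusted p = 0.295), and 0% of all 19938 genes passed (smallest adjusted p = 0.201). That fit held no replicate block, and with such a block 2 of the 89 and 90 of all genes passed. At an unadjusted p under 0.05 there were 21 higher genes, or 23.6% of the 89, against 4.65% of all genes, and 1 lower gene, or 1.12%, against 3.56% of all. For 16 of the 89, or 17.98%, every KLF7 array lay above every control array, against 2.83% of all genes. Of the 89, 57 had a mean level above the median of all genes, so the set of all genes holds more dim ones. The genes above that median are the 10 and 9959 others. A limma fit of only those genes had 1184 at an unadjusted p under 0.05 in either direction. Over all 19938 genes there were 1637, a smaller share. At that threshold the share over all genes is therefore a low background for the 89. The lists were written with earlier results of these data known, so these shares describe the lists and do not test them. The counts given for each list below stand beside the same shares of all genes. Those are 50.4% with a higher mean and 4.65% higher at an unadjusted p under 0.05.

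**Figure D5:**
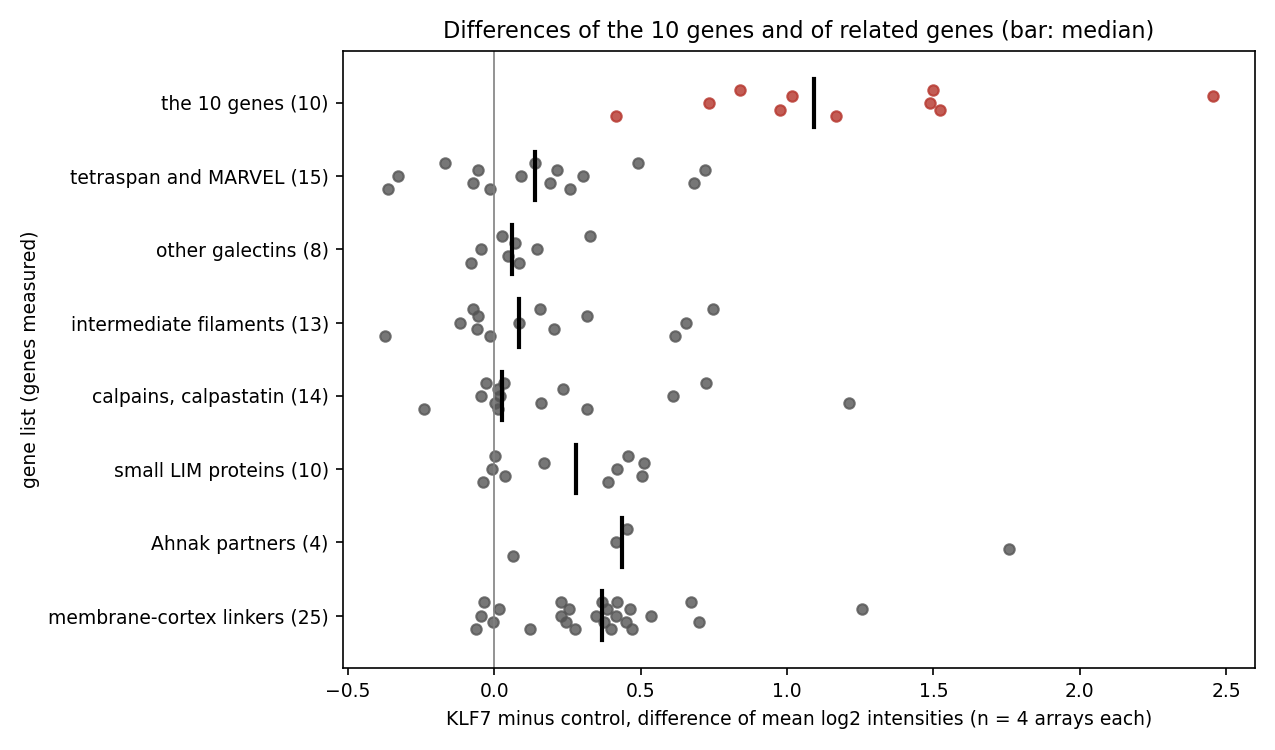
Difference of the mean log2 intensity, KLF7 minus control, of the 10 genes (red) and of 89 related genes (grey) in 7 lists, with the median of each list as a black bar. The median of the 10 genes is 1.09, and those of the 7 related lists lie between 0.03 and 0.44.

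The list of partners and relatives of Ahnak had 4 measured genes, and 2 of them, S100a10 and Anxa2, were higher at an unadjusted p under 0.05. S100a10, whose protein joins annexin A2 and Ahnak at the membrane, had a log2 intensity of 10.83, 11.04, 10.45 and 11.81 on the KLF7 arrays, against 8.97, 8.59, 9.12 and 10.42 on the control arrays. The groups did not overlap, by a margin of 0.029, and the arrays numbered 4 were highest in both, as for Crip1 and Capn2. Its difference was 1.76 (SE 0.40, limma adjusted p = 0.323, or 0.028 with the replicate number as a block). Anxa2, the gene of annexin A2, was at 9.08 ± 0.29 on the KLF7 arrays and 8.62 ± 0.07 on the control arrays (SD, n = 4 each), a difference of 0.45 (SE 0.19). Ahnak2, a relative of Ahnak, was at 7.82 ± 0.57 on the KLF7 arrays and 7.40 ± 0.68 on the control arrays, with overlapping groups. Dysf, which encodes a membrane repair protein, was at 5.04 ± 0.27 on the KLF7 arrays and 4.98 ± 0.11 on the control arrays, also with overlapping groups.

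In the calpain list, 11 of 14 genes averaged higher in KLF7 cells, 3 of these at an unadjusted p under 0.05, while the list's median was 0.03. Cast encodes calpastatin, the natural inhibitor of calpains. Its log2 intensity was 8.98, 8.77, 9.02 and 8.90 on the KLF7 arrays, against 8.11, 8.26, 8.21 and 8.19 on the control arrays. These were tight groups far apart, with a difference of 0.72 (SE 0.16) and the smallest unadjusted p of the 89 genes (limma adjusted p = 0.295). Capns2, a gene for a small regulatory calpain subunit, differed by 1.21 (SE 0.29), and Capn5 by 0.61 (SE 0.20). Capns2 was dim in control cells, below the median of all genes on every control array. Capns1, which encodes the usual small subunit of m-calpain, differed by 0.24 (SE 0.25) and Capn1, the catalytic subunit gene of the other main calpain, by 0.32 (SE 0.20), both with overlapping groups.

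Among membrane-cortex linkers, 21 of 25 genes averaged higher in KLF7 cells, against 50.4% of all genes, and the list's median was 0.37. Of these, 8 had an unadjusted p under 0.05, against 4.65% of all genes. Only 1 of the 25 was below the median of all genes on every array. Actn1, which encodes the actin cross-linker alpha-actinin-1, was at 9.16 ± 0.51 on the KLF7 arrays and 7.90 ± 0.42 on the control arrays (difference 1.26, SE 0.29, limma adjusted p = 0.323). Msn encodes moesin, the main linker of actin to the membrane in white blood cells, and was at 10.02 ± 0.05 on the KLF7 arrays and 9.35 ± 0.23 on the control arrays (difference 0.67, SE 0.17). Add1, an adducin gene of the spectrin network, differed by 0.70 (SE 0.20) and Sptan1 by 0.40 (SE 0.15). The groups did not overlap for these 4 genes. Ezr, the gene of moesin's relative ezrin, differed by -0.06 (SE 0.18), Cd44, a receptor gene tied to the cortex, by 0.38 (SE 0.25) and Actb, the gene of beta-actin, by 0.24 (SE 0.14), all with overlapping groups.

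Intermediate filament genes other than Vim were divided. Of 13, 7 had a higher and 6 a lower mean, with a median of 0.09 and 3 higher at an unadjusted p under 0.05. Lmna, the gene of the nuclear lamins A and C, was at 7.03 ± 0.15 on the KLF7 arrays and 6.37 ± 0.18 on the control arrays (difference 0.66, SE 0.16, limma adjusted p = 0.323). The linker genes Dst (0.62, SE 0.15) and Plec (0.75, SE 0.26), whose proteins tie intermediate filaments to other structures, were the other 2. Dst was below the median of all genes on every control array. Nes, which encodes nestin, was dim and differed by 0.32 (SE 0.15).

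Of 10 small LIM protein genes related to Crip1, 8 averaged higher in KLF7 cells, 3 of these at an unadjusted p under 0.05, and the list's median was 0.28. These were Csrp3 (0.42, SE 0.15), a gene known from muscle, Zyx, the zyxin gene of adhesion sites (0.51, SE 0.19), and Csrp1 (0.51, SE 0.21). Lasp1, an actin-binding LIM protein gene, differed by 0.46 (SE 0.21). Crip2 and Crip3, the closest relatives of Crip1, were below the median of all genes on every array.

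Relatives of Emp1, Emp2 and Myadm went both ways. Of 15 tetraspan and MARVEL genes, 9 averaged higher in KLF7 cells and 6 lower, with a median of 0.14. Plp2, which encodes a MARVEL protein of blood cells, differed by 0.72 (SE 0.21) with groups that did not overlap, and Cmtm6 by 0.68 (SE 0.27). Mall differed by -0.36 (SE 0.16) and was the 1 lower related gene at an unadjusted p under 0.05, and Mal differed by 0.26 (SE 0.16). Both Mall and Mal were below the median of all genes on every array. Emp3, a sister gene of Emp1 and Emp2, was at 10.64 ± 0.65 on the KLF7 arrays and 10.15 ± 0.44 on the control arrays with overlapping groups, and Pmp22 was at 6.20 ± 0.22 on the KLF7 arrays and 6.26 ± 0.32 on the control arrays.

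The list of other galectins, which also took in Lgals3bp, held 8 genes. Of these, 6 averaged higher in KLF7 cells, the list's median was 0.06, and 0 had an unadjusted p under 0.05. Lgals8 differed by 0.33 (SE 0.16), Lgals9 by 0.07 (SE 0.29) and Lgals3bp, which encodes a glycoprotein that galectin-3 binds and is no galectin gene, by 0.08 (SE 0.27). Lgals12 (0.15, SE 0.18), Lgals7 (-0.08, SE 0.14) and Lgals2 (-0.05, SE 0.11) were below the median of all genes on every array.

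Markers of other cells were read for the same arrays. Of 11 stem and progenitor markers, 7 averaged higher and 4 lower in KLF7 cells, and the list's median was 0.08, or 0.30 without both arrays numbered 4. At an unadjusted p under 0.05 there were 2 lower genes, against 3.56% of all genes, and 0 higher ones, against 4.65%. Myb, a transcription factor gene of progenitors, was at 9.15 ± 0.47 on the KLF7 arrays and 10.06 ± 0.20 on the control arrays (difference -0.91, SE 0.24, limma adjusted p = 0.356). Hlf, which encodes a leucine zipper factor known from stem cells, was at 6.67 ± 0.38 on the KLF7 arrays and 7.58 ± 0.33 on the control arrays (difference -0.90, SE 0.23, limma adjusted p = 0.327). For both genes every KLF7 array lay below every control array. Medians were 0.09 for 12 neutrophil, 0.37 for 8 mast cell and basophil, -0.13 for 5 erythroid, -0.16 for 7 megakaryocyte, -0.01 for 7 B cell, 0.08 for 9 T and NK cell and -0.06 for 15 stromal, endothelial and epithelial markers. Without both arrays numbered 4 the medians that moved by more than 1.5 times, besides that of the stem list, were 0.035 for neutrophil, -0.21 for erythroid, 0.09 for B cell, 0.22 for T and NK cell and -0.028 for stromal, endothelial and epithelial markers. Of these 7 lists, 1 gene had an unadjusted p under 0.05: Cdh1, the gene of the adhesion protein E-cadherin, was at 8.37 ± 0.51 on the KLF7 arrays and 7.32 ± 0.47 on the control arrays, without overlap (difference 1.05, SE 0.30, limma adjusted p = 0.373). Among neutrophil markers the largest difference was that of Mpo, the myeloperoxidase gene (-1.11, SE 0.75), with overlapping groups. Markers of mast cells and basophils varied widely within each group, with summed intensities of 984 to 12218 units on the KLF7 arrays and 706 to 9798 on the control arrays. Ms4a2, Fcer1a, Cma1 and Cpa3, those with the largest differences, were each lowest on the arrays numbered 4 in both groups. In the order of replicates, Cpa3 was at 12.1, 12.3, 12.6 and 8.0 on the KLF7 arrays and at 11.1, 12.3, 12.0 and 7.5 on the control arrays. Of the 15 stromal, endothelial and epithelial markers, 10 were below the median of all genes on every array, among them Col3a1, Pdgfra, Dcn and Cdh5.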

How the data were processed

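The authors deposited 1 intensity per probe set and array on a linear scale, and the submitters' processing notes name RMA and Affymetrix Expression Console. The sources used here name no version, summary level or genome build, and amplification and background correction can compress differences of dim genes. The deposited intensities lay between 2.20 and 15393, and log2 was taken. Of 35554 probe sets, 21789 carried 1 symbol in the platform annotation, 1621 several and 12144 none, and those with several or none were left out. Where several probe sets shared a symbol (999 genes) the brightest on average stood for the gene, which left 19938 genes. By Entrez number 21698 of the 21789 matched the RefSeq table of GRCm38 and 0 symbols changed.

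Each gene's log2 level was modelled on group alone with limma 3.58.1 under R 4.3.3 (lmFit, then eBayes whose prior follows the intensity), two-sided, with Benjamini-Hochberg adjustment over 19938 genes at 0.05. SEs are those of this fit. It was tested on simulated data with noise drawn independently for each gene and array. Deviations shared between arrays were not simulated, so that test does not cover them. The 10 genes and all lists were chosen with earlier results of these data known. Genes named were the 10, up to 4 of each related list by smallest p with 14 fixed ones, the 6 genes most alike in each form, and, from marker lists, some of the 4 with the largest difference, beside markers named only for lying below the median of all genes. Alternatives left out arrays, took replicate numbers as blocks, repeated the normalization, weighted arrays, or changed the prior, the test and the filter on dim genes. The number of arrays limits the precision. Figures were drawn with matplotlib 3.10.9.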

Additional observations from a re-analysis of the deposited data

Results flagged for a closer look

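Within groups of 4 arrays, 24 sets of values (the 10 genes, Klf7 and the mean of the 10, in each group) were examined for an array far from the others, and 2 exceeded Dixon's critical value for the gap to the nearest array as a share of the group's range. Chance alone puts about 1 in 20 such sets past it. The log2 intensity of Emp2 on the array labelled control 2 was 5.73, against 5.24 on the nearest control array and 5.18 on the lowest, a gap of 0.896 of the range. That array was also the control array with the highest Klf7 level. The log2 intensity of Vim on the array labelled control 4 was 10.79, against 11.08 on the nearest control array and 11.14 on the highest, a gap of 0.838 of the range. The causes were not tested.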

How the results depend on the processing

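The 10 differences were recomputed under 14 alternatives that could move them, and all 140 values stayed above 0. With groups of equal size, a block or batch term leaves a difference of means as it is. For the 7 genes without overlap, leaving out arrays could not bring a difference to 0. All 140 values also lay within 1 SD between arrays of the value first given. Leaving out 1 array, or 1 per group, cannot move a difference further than that, so those settings do not test its stability. Leaving out 1 array at a time gave medians of 0.99 to 1.18. Emp1 was the gene that moved by more than 1.5 times, to 0.28 without the array labelled KLF7 1 and 0.47 with array weights. The number of the 10 genes whose groups did not overlap was 9 without control 4, or without both arrays numbered 4 (chosen after seeing the data), and 7 or 8 otherwise. The median of the pairwise correlations as measured ranged from 0.72 to 0.79 over the sets that lacked 1 array, and after group means were subtracted from 0.07 to 0.24. Over all genes, limma with Benjamini-Hochberg adjustment called 0 to 1 genes in the fits that lacked 1 array (1 gene each for KLF7 3 and control 4), and 0 with all arrays, where 1637 had an unadjusted p under 0.05. Nothing in the labels says that replicate numbers pair the arrays, so the main fit did not take them as a block. Deviations from group means of same-numbered arrays correlated at 0.35, -0.13, 0.36 and 0.70 over all genes. The replicate number as a block gave 90 genes over all (75 higher, 15 lower) and 2 of the 89 related genes, Capns2 and S100a10. With that block, 3 of 95 markers of other cells also passed, Itgax (adjusted p = 0.029), Cdh1 (0.045) and H2-Aa (0.04996), each higher on the KLF7 arrays. As a hint from the data, 3 of the 4 KLF7 arrays correlated best with the control array of their own number. The arrays numbered 4 as a batch term, an alternative chosen after seeing the data, gave 26 genes over all (23 higher, 3 lower) and 1 related gene, S100a10, and 0 of the markers. The causes of these changes were not tested. The other alternatives, among them new normalizations, array weights, the prior and the ordinary linear model, called 0 genes. Each of the 10 genes had 1 probe set, so an average over probe sets was not possible. The files give no detection calls, so how far dim genes such as Emp2 in control cells lay above background is not known.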
